A study of Mus musculus with 6 samples.

Results

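Messenger RNA of the doublecortin family and of other neuronal microtubule proteins was followed in the cerebellum of mice with and without a conditional knockout of the transcriptional regulator SnoN. The 10 genes were chosen by name: Dcx, Dclk1 and Dclk2 of the doublecortin family, the microtubule-associated protein (MAP) genes Map1a, Map1b, Map2 and Mapt, the stathmin genes Stmn1 and Stmn2, and the tubulin gene Tubb3. All 10 were present in a table of 40568 genes, and all 10 were among the 15457 genes with enough counts to be tested. Total RNA of the whole cerebellum had been sequenced in 3 wild type samples and 3 samples with the knockout (SnoN cKO), all C57BL/6 and 6 days old, with 1 library each. Which Cre line or exons were used, and whether the wild type animals carried a floxed allele, is not given in the sources used here. Levels are in CPM, which express a gene's counts as a share of its library, here after edgeR's TMM correction of library size. A spread is the SD of 3 libraries, and a log2 ratio is that of SnoN cKO over wild type, so that a negative value means lower in SnoN cKO. The labels give each library a code of its own but do not say in words that each is a separate animal. The p-values therefore weigh the genotype difference against the spread between these libraries.

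Microtubules form the tracks and the scaffold of growing neurites, and a neuron changes the proteins that coat them as it leaves the cell cycle, migrates and matures. Doublecortin, the product of the X-linked gene Dcx, binds between protofilaments and is made mainly by young migrating neurons. In the early postnatal cerebellum granule neurons are born in the external granular layer, extend parallel fibres and migrate inward, and Dcx has been reported as a gene that SnoN represses. The classical MAPs stabilise microtubules of axons and dendrites, stathmins destabilise them, and Tubb3 encodes a beta-tubulin that is largely restricted to neurons.

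The libraries were first checked against their labels. Skil, which encodes SnoN, was at 89.5, 87.5 and 88.9 CPM in wild type 1, 2 and 3 and at 76.0, 74.7 and 77.5 CPM in SnoN cKO 1, 2 and 3, so the genotypes did not overlap, with a difference of -14.2%. Skil had an unadjusted p of 0.000379 and, like every gene, missed the adjusted threshold (adjusted p = 0.637 by edgeR's quasi-likelihood test). Reads of Skil were not split by exon or by cell, so the value is an average over all cells of the organ. In 2 of 6 libraries Xist and 4 summed Y-linked genes went against the labelled sex. SnoN cKO 1, labelled female, held 35 counts of Xist and 3421 Y-linked counts, and SnoN cKO 2, labelled male, held 37467 counts of Xist and 5 Y-linked counts. Both carry the same genotype label. The genotype groups are therefore unchanged if only the sex labels are wrong or these libraries were exchanged with each other. Whether either came from another animal, with another genotype, was not tested. SnoN cKO 3 and wild type 2 stood apart in Gm42418, a gene model that overlaps a ribosomal RNA repeat, with 3.75% and 0.692% of counts against at most 0.066% in the other libraries. SnoN cKO 2 was almost without the choroid plexus transcript Ttr (17.3 CPM, against 1641 to 3209 CPM elsewhere). Cerebellar markers were present in all libraries, with wild type means of 1461 CPM for Zic1, 204 CPM for Barhl1 and 387 CPM for Calb1. Libraries held 12605870 to 17757711 counts.

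For 7 of the 10 genes a promoter window of 300 bases, 250 before and 50 after the annotated start, was at hand from RefSeq (GRCm38.p6), and 3 are printed to show the kind of promoter that stands before Dcx, before Map1b, the gene of the set with the smallest p, and before Tubb3. Both Dcx windows overlap, and the upstream one of the 2 is printed. The letters run from 250 bases before the start up to the start, 5′ to 3′ on the strand of the gene, and capitals mark CG dinucleotides and the CAGAC element that Smad proteins, partners of SnoN, can bind.
Dcx (chrX:143933220-143933469, minus strand): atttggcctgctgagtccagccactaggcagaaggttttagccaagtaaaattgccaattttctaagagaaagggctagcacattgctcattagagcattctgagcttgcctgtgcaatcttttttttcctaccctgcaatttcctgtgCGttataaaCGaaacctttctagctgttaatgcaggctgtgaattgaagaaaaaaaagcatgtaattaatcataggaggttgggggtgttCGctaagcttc
Map1b (chr13:99516603-99516852, minus strand): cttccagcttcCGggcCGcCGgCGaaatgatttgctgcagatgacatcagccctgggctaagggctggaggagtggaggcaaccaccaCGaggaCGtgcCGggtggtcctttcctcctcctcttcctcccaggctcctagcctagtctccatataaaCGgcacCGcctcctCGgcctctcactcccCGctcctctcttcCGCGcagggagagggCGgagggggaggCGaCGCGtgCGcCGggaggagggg
Tubb3 (chr8:123411303-123411552, plus strand): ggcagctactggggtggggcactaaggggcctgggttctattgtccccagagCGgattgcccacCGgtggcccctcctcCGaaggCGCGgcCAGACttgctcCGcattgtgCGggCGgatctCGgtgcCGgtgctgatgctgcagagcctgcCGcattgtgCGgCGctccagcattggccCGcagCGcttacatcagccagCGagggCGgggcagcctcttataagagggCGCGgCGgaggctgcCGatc
The Dcx window held 3 CG dinucleotides, whereas that of Map1b held 23 and that of Tubb3 26, where the median over 32851 windows was 7. Dclk1 resembled Dcx, with 5 and 6 CG dinucleotides at its 2 starts. Dclk2, Map1a and Map2 held 27, 27 and 37. CAGAC, searched on both strands as CAGAC or GTCTG, was present in the Tubb3 window, in the window of the other annotated Dcx start, 14 bases before it, and in a Dclk1 window. Of all windows 49.6% hold it. GTAAACA, the core bound by FOXO factors, searched on both strands as GTAAACA or TGTTTAC and sharing no match with CAGAC, was in none of the 9 windows of these genes and in 3.65% of all windows. These letters describe the windows only, and binding was not measured. Mapt, Stmn1 and Stmn2 were not matched in the table.

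Doublecortin did not differ detectably between genotypes. Dcx was at 832, 807 and 934 CPM in wild type 1, 2 and 3 and at 885, 919 and 844 CPM in SnoN cKO 1, 2 and 3. Wild type 3 was the highest of the 6 libraries and wild type 2 the lowest, so the wild type range held every SnoN cKO library. The means were 858 ± 66.9 CPM in wild type, against 883 ± 37.8 CPM in SnoN cKO (SD, n = 3 each), a log2 ratio of 0.04 (SE 0.06). By edgeR's quasi-likelihood test the adjusted p was 0.864. The 95% interval of the ratio between genotypes ran from 0.938 to 1.13. In RNA from a whole organ, fewer cells of a type and less RNA per cell cannot be told apart.

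The other members of the family also overlapped between genotypes. Dclk1, which joins doublecortin domains to a kinase domain, was at 603, 603 and 612 CPM in wild type, against 606, 594 and 588 CPM in SnoN cKO. It was the steadiest of the 10 genes, with a coefficient of variation of 1.42% over the 6 libraries, and its log2 ratio was -0.02 (SE 0.04). Dclk2, its close relative, was at 254, 268 and 281 CPM in wild type, against 275, 288 and 268 CPM in SnoN cKO. SnoN cKO 2 was the highest library and wild type 1 the lowest, and the log2 ratio of Dclk2 was 0.05 (SE 0.05). Dclk3, a kinase relative with few reads, was at 13.8 ± 2.52 CPM against 12.4 ± 2.22 CPM (SD, n = 3 each), and Foxo1, a reported partner of SnoN at Dcx, at 29.1 ± 0.59 CPM in wild type, against 29.8 ± 1.70 CPM in SnoN cKO. Adjusted p from edgeR for these 4 genes were between 0.798 and 0.913.

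**Figure D1:**
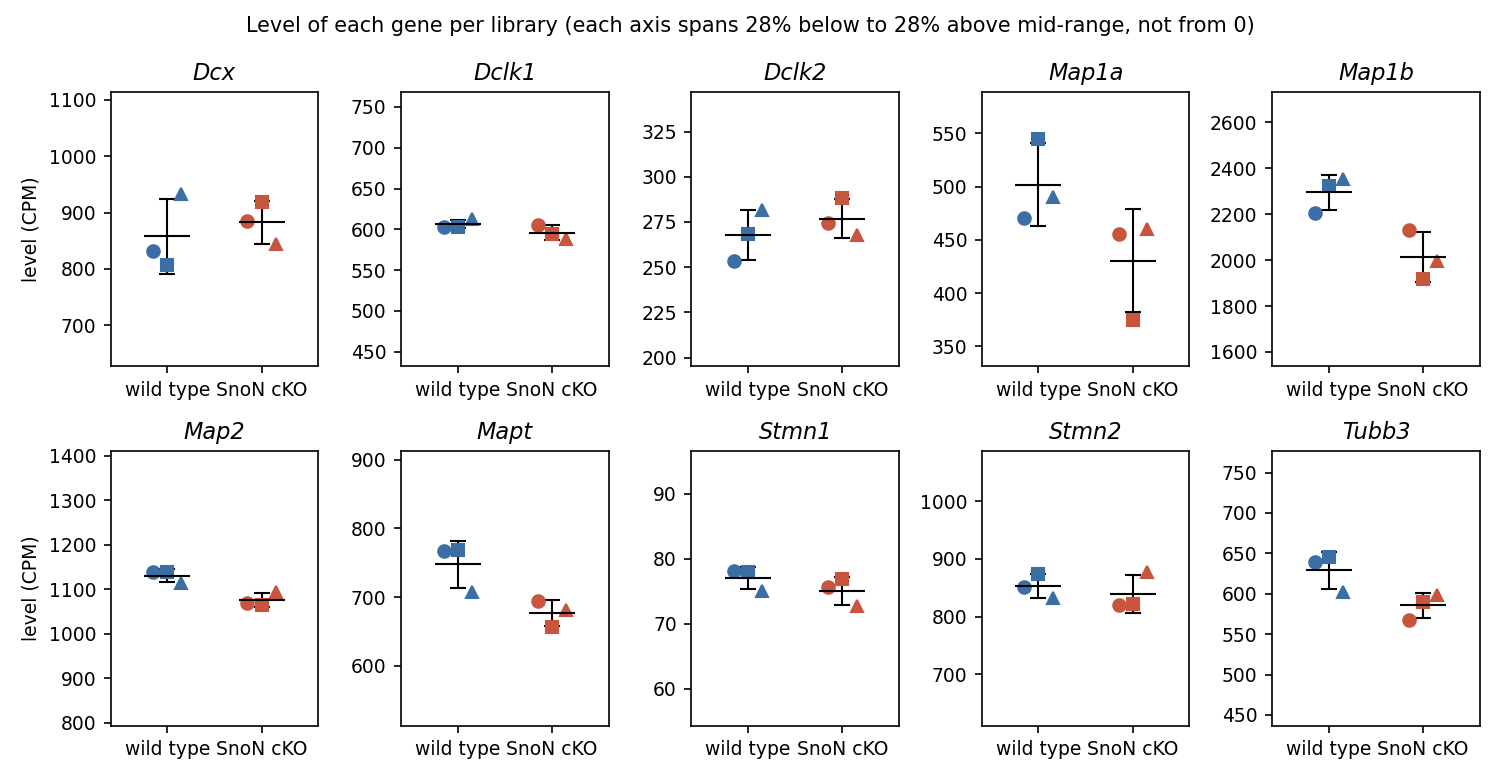
Level in CPM (y axis, centred on the mid-range of each gene and not starting at 0) of the 10 genes in the 3 wild type (blue) and 3 SnoN cKO (red) libraries; circles, squares and triangles are replicates 1, 2 and 3, and bars are mean ± SD. In Map1a, Map1b, Map2, Mapt and Tubb3 each red point lies below each blue point, and in the other 5 genes the genotypes overlap.

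The 4 classical MAP genes were lower in every SnoN cKO library than in every wild type library, by small amounts that did not pass the adjusted threshold. Map1b encodes the MAP that predominates in growing axons. Its level was 2207, 2325 and 2353 CPM in wild type 1, 2 and 3 and 2132, 1917 and 1998 CPM in SnoN cKO 1, 2 and 3. The nearest libraries, wild type 1 and SnoN cKO 1, differed far less than the group means did. Map1b had a log2 ratio of -0.19 (SE 0.05), a difference of -12.2%, and ranked 47 of 15457 genes by p. Its unadjusted p from edgeR's quasi-likelihood test was 0.00318 and its adjusted p 0.637.

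Map1a, the relative of Map1b that becomes more abundant as neurons mature, was at 470, 545 and 490 CPM in wild type, against 456, 375 and 461 CPM in SnoN cKO. SnoN cKO 2 was far below all others, while SnoN cKO 1 and 3 lay just under wild type 1. The log2 ratio was -0.22 (SE 0.08), and -0.13 without SnoN cKO 2. Mapt, which encodes the axonal protein tau, was at 767, 768 and 708 CPM in wild type, against 694, 657 and 681 CPM in SnoN cKO. Here wild type 3 was close to the SnoN cKO libraries, and the log2 ratio was -0.14 (SE 0.05). Map2, the MAP of dendrites and cell bodies, was at 1138, 1138 and 1113 CPM in wild type, against 1069, 1065 and 1092 CPM in SnoN cKO. This was the smallest difference of the 4, with a log2 ratio of -0.07 (SE 0.04) and a 95% interval of -0.16 to 0.02. Adjusted p from edgeR for Map1a, Mapt and Map2 were 0.637, 0.637 and 0.663.

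Among the remaining genes only Tubb3 separated the genotypes. Tubb3 was at 639, 645 and 602 CPM in wild type, against 567.98, 590 and 599 CPM in SnoN cKO, so wild type 3 and SnoN cKO 3 nearly met. The log2 ratio was -0.10 (SE 0.05), with an adjusted p of 0.648 from edgeR. Stmn2, the growth cone stathmin also called SCG10, was at 852, 873 and 832 CPM in wild type, against 820, 821 and 877 CPM in SnoN cKO. Its highest library was SnoN cKO 3, and its log2 ratio was -0.02 (SE 0.05). Stmn1, the cytosolic stathmin, was at 78.2, 77.9 and 75.1 CPM in wild type, against 75.7, 76.9 and 72.7 CPM in SnoN cKO. Its genotypes overlapped, and its log2 ratio was -0.04 (SE 0.04). The Stmn1 level is uncertain, since 18.9% of the 50-base stretches of its transcripts also occur in other annotated genes, chiefly Gm11223, and reads that fit more than 1 place may have been split or left out of the counts. For the other 9 genes that share was at most 1.83%.

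**Figure D2:**
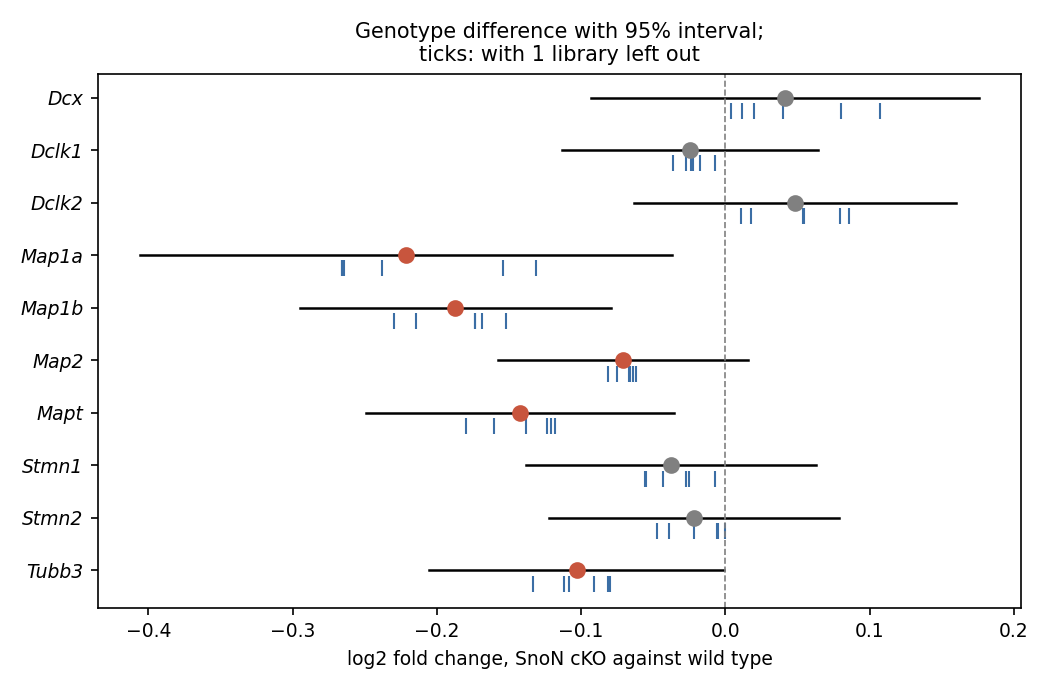
Log2 ratio of SnoN cKO over wild type (x axis, labelled log2 fold change) for the 10 genes, with the 95% interval from edgeR (black line); red dots mark genes whose genotypes did not overlap, and blue ticks the values with 1 library left out. Map1b lies at -0.19. The intervals of Map1a, Map1b, Mapt and Tubb3, which are not adjusted for the number of genes, lie below 0. Those of the other genes, Dcx among them, span 0. With 1 library left out no gene of the 10 changes sign.

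Counted over the set, 5 of 10 genes were lower without overlap in SnoN cKO and 0 were higher without overlap. Over all 15457 genes 6.73% were lower and 6.95% higher in this way. The same 5 genes were separated when the libraries were scaled by DESeq2's size factors or by their totals. With totals alone 8.63% of all genes were lower and 3.93% higher. The 10 genes come from the same 6 libraries and are not independent of each other. Log2 ratios were negative in 8 and positive in 2 of the 10, with a median of -0.05 against -0.002 over all genes, 49% of which were positive. In edgeR's quasi-likelihood test 0 of 10 genes and 0 of 15457 genes had an adjusted p under 0.05, which is 0% of genes, and the smallest adjusted p was 0.637. Without adjustment 4 of the 10 genes (Map1a, Map1b, Mapt and Tubb3) had a p under 0.05, all of them lower in SnoN cKO. The same held for 1187 of all genes, 7.68%, with 4.47% lower and 3.21% higher. Across all genes limma-voom called 0 genes and DESeq2 6, none of them among the 10.

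Ratios of counts within a library do not depend on how libraries are scaled. Map1b counts per Dcx count were 2.65, 2.88 and 2.52 in wild type and 2.41, 2.09 and 2.37 in SnoN cKO, without overlap. Counts of Map1a, Map1b, Map2 and Mapt together per count of Dcx, Dclk1 and Dclk2 were 2.71, 2.84 and 2.55 in wild type and 2.46, 2.23 and 2.49 in SnoN cKO, again without overlap. The same sum per Dcx count alone overlapped, at 5.51, 5.92 and 4.996 in wild type and 4.92, 4.37 and 5.02 in SnoN cKO. Taken singly, Map1a, Map2, Mapt, Tubb3 and Stmn2 overlapped between genotypes both per Dcx count and per count of the family, so among the 6 genes so taken Map1b alone separated. These ratios were chosen after the values were seen and were not tested. With 3 libraries in each genotype, 0.1 is the smallest two-sided p that exact permutation allows.

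Levels of different genes were compared per kilobase of annotated exon (GENCODE M21), in CPM per kb. Tubb3 stood highest in wild type at 337 ± 12.4 CPM per kb, followed by Stmn2 at 152 ± 3.67 and Map1b at 145 ± 4.89 CPM per kb. Mapt followed at 99.3 ± 4.59 CPM per kb. Map2 and Dcx, at 68.7 ± 0.872 and 67.8 ± 5.29 CPM per kb, did not differ beyond their spread, and Map2 was the higher in 2 of 6 libraries. Map1a, Stmn1 and Dclk1 lay at 41.3 ± 3.18, 40.1 ± 0.898 and 39.6 ± 0.329 CPM per kb and changed places between libraries, each neighbour being higher in 3 of 6. Dclk2 was lowest at 25.4 ± 1.32 CPM per kb. Tubb3, Stmn2, Map1b and Mapt kept this order in all 6 libraries. In SnoN cKO the means were 314 ± 8.53 CPM per kb for Tubb3, 127 ± 6.86 for Map1b and 69.8 ± 2.99 for Dcx. This order depends on the length used. Per kilobase of the longest transcript Map2 was at 181 CPM per kb, above Mapt at 142 and Dcx at 94.5, and Map1a at 42.4 was below Stmn1 at 72.7 and Dclk1 at 76.1, so the near equality of Map2 and Dcx and that of Map1a with Stmn1 and Dclk1 were seen only with the length over all exons.

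**Figure D3:**
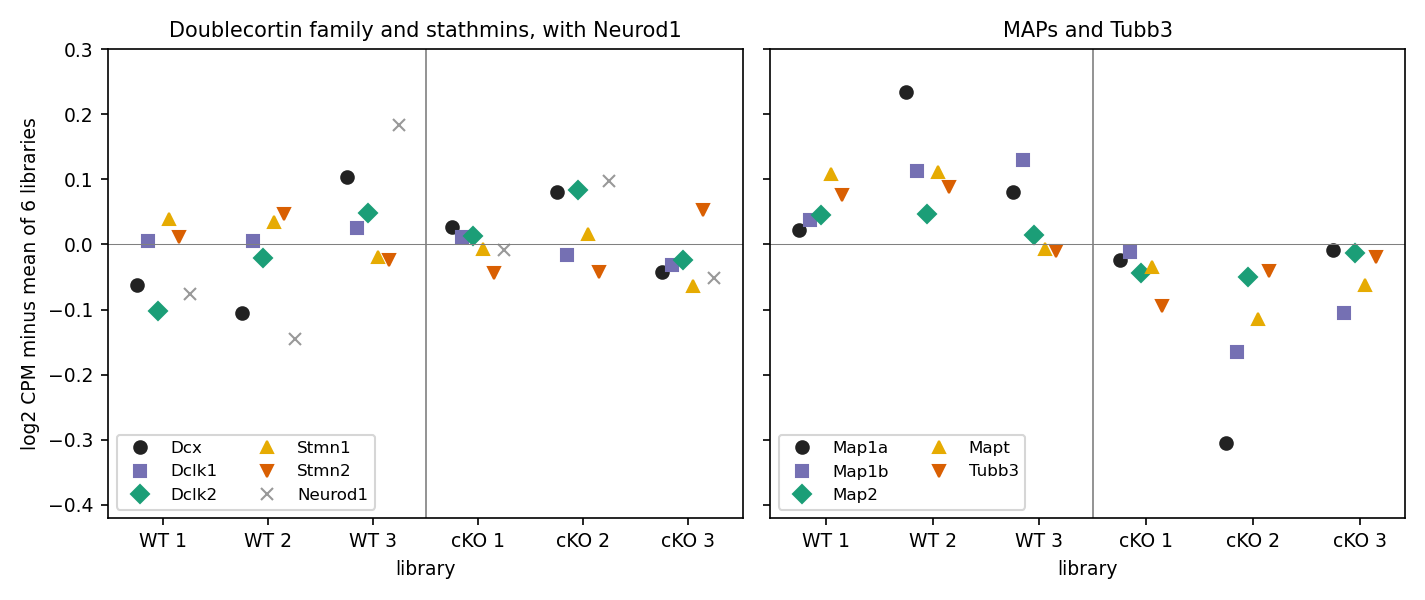
Log2 CPM of each gene minus its mean over the 6 libraries (y axis), by library (x axis), for the doublecortin family and stathmins with the granule neuron factor Neurod1 (left) and for the MAP genes and Tubb3 (right). Dcx and Neurod1 are highest in wild type 3 and next highest in SnoN cKO 2, and Map1a is lowest in SnoN cKO 2.

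Between libraries of 1 genotype, Dcx and some of the other genes went opposite ways, and Map1b did not do so throughout. Wild type 3 had the highest Dcx and Map1b of its group and the lowest Mapt, Map2, Tubb3 and Stmn2. SnoN cKO 2 had the highest Dcx and Dclk2 of its group and the lowest Mapt, Map1a, Map1b and Map2. Neurod1, a transcription factor of differentiating granule neurons, put the 6 libraries in the same order as Dcx, with 471, 449 and 564 CPM in wild type, against 494, 531 and 479 CPM in SnoN cKO. It was chosen for display after its values were seen. By Pearson correlation of log2 CPM over the 6 libraries, the genes most like Dcx among 12296 genes of at least 5 CPM were Xkr7, Zfp687, Brd1, Celf2 and Tmed2, with r from 0.985 to 0.989. With 6 libraries of 1 tissue 232 genes reached an r over 0.9, so the ranking describes these libraries and no more. Dclk2 had an r of 0.80 with Dcx, Dclk1 of 0.24, Map1b of -0.21, Stmn1 of -0.27, Map1a of -0.58, Map2 of -0.62, Tubb3 of -0.69, Mapt of -0.70 and Stmn2 of -0.82. After centring by genotype the r of Map1b was 0.09.

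Other genes of the microtubule system were taken from 6 lists. In none of them did a gene pass edgeR's adjusted threshold, either higher or lower, and the count was 0 in each. Of 22 other MAPs, stathmins and doublecortin relatives, 15 had negative and 7 positive log2 ratios, with a median of -0.04. In this list 5 genes were lower without overlap and 0 higher, where the shares over all genes were 6.73% and 6.95%. They were Map6, Map7d2, Tppp, Tppp3 and Jakmip1, and all but Map6 are named after their values were seen. Map6, which protects microtubules against cold, was at 243, 244 and 249 CPM in wild type, against 223, 214 and 223 CPM in SnoN cKO, a log2 ratio of -0.16 (SE 0.04, adjusted p = 0.637 from edgeR). Tppp, a tubulin polymerisation protein prominent in oligodendrocytes, had a log2 ratio of -0.26 (SE 0.08). Stmn3 and Stmn4, relatives of Stmn2, had log2 ratios of -0.07 (SE 0.05) and -0.11 (SE 0.05), and the broadly expressed Map4 of -0.04 (SE 0.04).

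Tubulin genes other than Tubb3 did not separate the genotypes. Of 15 tubulins 9 were positive and 6 negative, with a median of 0.02, and in 0 of them did the libraries separate. Tubb5 and Tubb2b, beta-tubulins of dividing and young neural cells, had log2 ratios of 0.02 (SE 0.05) and 0.03 (SE 0.04), and Tuba1a, the main alpha-tubulin of young neurons, of -0.02 (SE 0.04). Tubb2a had the smallest p of the list, with a log2 ratio of -0.14 (SE 0.06). Counts of Tuba1a, Tubb2a and Tubb2b are uncertain because 75.5%, 49.6% and 36.9% of their 50-base stretches occur in other annotated genes.

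Over all genes the median log2 ratio was -0.002 and 49% were positive. The lists of regulators had medians from -0.03 to -0.009. Their genes without overlap numbered 2 of 21 (partners and kinases), 3 of 20 (end-binding proteins), 0 of 8 (severing enzymes) and 1 of 16 (modifying enzymes), where 13.7% of all genes did so in either direction. Of 21 doublecortin partners and MAP kinases 15 were negative, with a median of -0.02. Pafah1b1, the LIS1 gene that acts with dynein and, like Dcx, is mutated in lissencephaly, was at 603 ± 19.5 CPM in wild type, against 607 ± 5.07 CPM in SnoN cKO (SD, n = 3 each). Ndel1, a dynein partner of LIS1, had a log2 ratio of -0.11 (SE 0.07), Cdk5, a kinase that phosphorylates doublecortin and tau, of -0.05 (SE 0.05), and Ppp1r9b, which brings a phosphatase to doublecortin, of 0.02 (SE 0.04). Cdk5r2, which encodes the p39 activator of Cdk5, had the smallest p of the list and was lower without overlap, at 103 ± 5.03 CPM against 119 ± 9.19 CPM in wild type (SD, n = 3 each). Mapk10, a JNK kinase gene named after its values were seen, was the other gene of the list lower without overlap, at -0.12 (SE 0.06). Of 20 plus-end and minus-end proteins 15 were negative, with a median of -0.03. Macf1 and Dst, spectraplakins that link microtubules to actin, were lower without overlap, with log2 ratios of -0.07 (SE 0.04) and -0.09 (SE 0.04), and Mapre3, an end-binding protein of neurons, had -0.04 (SE 0.04). Mapre1, another end-binding protein, named after its values were seen, was higher without overlap, at 0.07 (SE 0.04). Severing enzymes were split at 4 positive and 4 negative, with Spast at 0.01 (SE 0.05), Katna1 at -0.04 (SE 0.11) and Fign, the smallest p, at -0.24 (SE 0.12). Of 16 tubulin-modifying enzymes 7 were positive and 9 negative. In that list the tyrosine ligase gene Ttl had a log2 ratio of 0.01 (SE 0.05), the glutamylase gene Ttll5 (named after its values were seen) 0.07 (SE 0.05) without overlap, the deacetylase gene Hdac6 of -0.02 (SE 0.04), and Agbl4, the smallest p, of -0.46 (SE 0.28) at about 2.32 CPM in wild type.

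**Figure D4:**
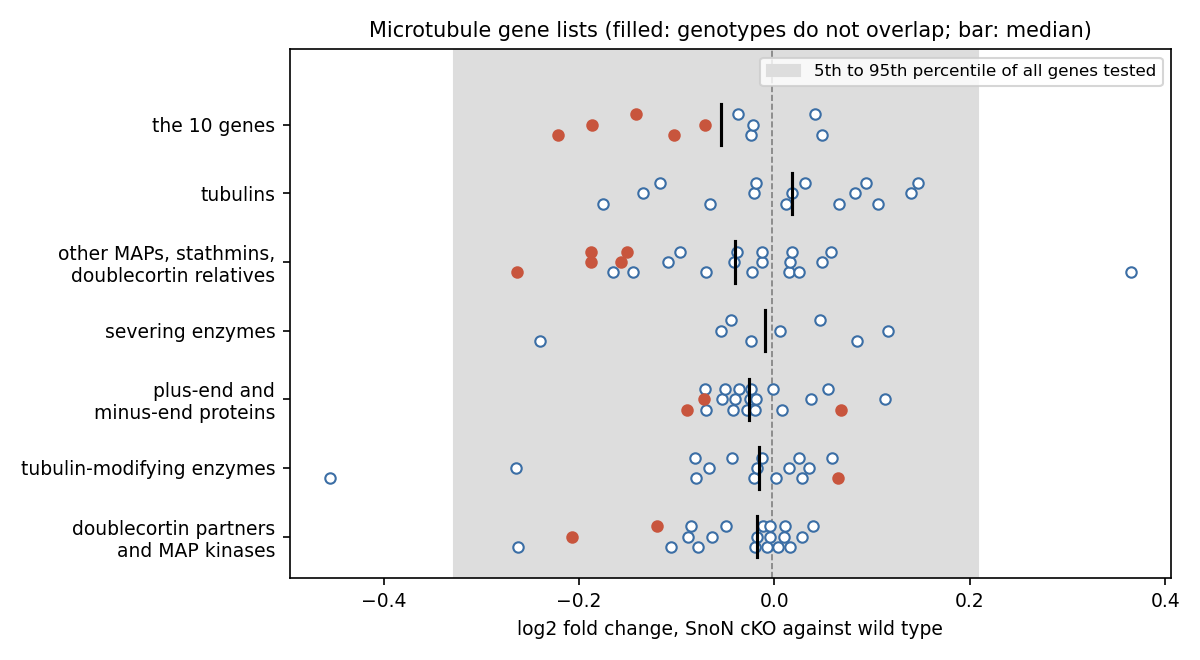
Log2 ratio of SnoN cKO over wild type (x axis, labelled log2 fold change) for each gene of the 10 and of 6 further microtubule lists (y axis); filled dots are genes whose genotypes did not overlap, black bars are list medians, and grey shading runs from the 5th to the 95th percentile of all genes. Of the 10 genes 5 are filled, all left of 0, and of the 15 tubulins 0 are filled.

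Sums of markers of some other cell types separated the genotypes as the MAP genes did, although 0 markers of any list passed edgeR's adjusted threshold. The 10 markers of unipolar brush cells and cerebellar nucleus neurons summed to 430 to 458 CPM in wild type, against 298 to 408 CPM in SnoN cKO, and all 10 had negative log2 ratios, 3 of them without overlap, where 6.73% of all genes were lower and 6.95% higher in this way. The 25 brainstem and midbrain markers, of which 13 could be tested, all 13 with negative log2 ratios and 3 without overlap, summed to 109 to 124 CPM in wild type, against 78.0 to 103 CPM in SnoN cKO. In both lists SnoN cKO 2, the library with the lowest Map1a, Map1b, Map2 and Mapt, had the lowest sum. None of the markers of either list was at 0 in all libraries. Otx2, a marker in the unipolar brush and nuclear list, is also counted among the choroid plexus markers. The 14 markers of granule precursors and dividing cells all had positive log2 ratios, 6 of them without overlap, and their sums overlapped, at 2375 to 2538 CPM in wild type, against 2478 to 2860 CPM in SnoN cKO. The 12 astrocyte and Bergmann glia markers summed to 4486 to 4524 CPM against 4651 to 4998 CPM in SnoN cKO, with 8 positive (4 without overlap) and 4 negative (1 without overlap). The 17 markers of postmitotic and maturing granule neurons had 11 positive (1 without overlap) and 6 negative log2 ratios (3 without overlap). They summed to 4542 to 5083 CPM in wild type, against 4753 to 4898 CPM in SnoN cKO. Sums of Purkinje cell, interneuron, oligodendrocyte, microglia, meningeal and choroid plexus markers overlapped between genotypes. Log2 ratios were negative in all 11 choroid plexus markers, none of them without overlap. These markers summed to 3517, 65.9 and 3259 CPM in SnoN cKO 1, 2 and 3, against 1831 to 3397 CPM in wild type. Only SnoN cKO 2 was thus below the wild type range. Negative log2 ratios were also seen in 10 of 13 oligodendrocyte markers, 3 without overlap, and in 9 of 10 meningeal markers, 1 without overlap. Log2 ratios were positive in 11 of 14 Purkinje cell (2 without overlap), 6 of 11 interneuron (1 without overlap) and 10 of 11 microglia markers (2 without overlap). The sums of endothelium and pericytes were higher in SnoN cKO without overlap, at 714 to 743 CPM in wild type, against 748 to 757 CPM. Of these markers 6 were positive (2 without overlap) and 4 negative (1 without overlap). Whether these differences have a part in the lower MAP levels was not tested. Without SnoN cKO 2 the log2 ratios of Map1a, Map1b, Map2, Mapt and Tubb3 were -0.13, -0.15, -0.06, -0.12 and -0.11. With no library left out they were -0.22, -0.19, -0.07, -0.14 and -0.10 in the same order. The sums of unipolar brush and nuclear markers were 403 and 408 CPM in SnoN cKO 1 and 3. Those of brainstem and midbrain markers were 89.7 and 103 CPM. Both sums were without overlap over all libraries, so leaving out SnoN cKO 2 could not have made them overlap.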

How the data were processed

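One table deposited by the authors gives unnormalised read counts of each gene in 6 libraries. The submitters' processing notes name mm9 as the genome build, the aligner STAR (2.0.4b), and the Subread and featureCounts (1.4.5) tools. The gene annotation is not given in the sources used here. Per the labels' protocols the kit was a single-end NEBNext Ultra RNA kit. That kit does not mark strand, so reads of Map1a and of Ppip5k1, which overlaps it on the other strand, could not be told apart where they overlap. Genes were read by symbol, because the identifier column did not belong to the symbols (97 of 39647 rows matched the reference) while Xist, Y-linked and marker genes behaved as their symbols do.

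Of 41228 rows, those repeating the symbol and counts of another row were kept once (140 of them above 0, with 0.465% of counts), leaving 40568. filterByExpr at a minimum count of 10 left 15457 genes. edgeR 4.0.16 in R 4.3.3 scaled libraries by TMM and fitted a two-sided quasi-likelihood test of genotype to all 6 libraries, with Benjamini-Hochberg adjustment over all genes at 0.05, after a test on simulated data. SE and 95% intervals came from the fold change and F statistic. The SE reflects the spread between libraries, and total counts of 12605870 to 17757711 limit the precision of fold changes. All 15 pairs of libraries differed by more than counting noise (lowest chi-square per degree of freedom 2.703), so none was counted as a repeat.

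Alternatives were DESeq2 1.42.0, limma-voom (limma 3.58.1), other scalings, no filter, a replicate block, labelled sex, repeats kept and each library left out, plus 2 pairs of libraries left out, which were chosen after seeing the data. The text names the 10 genes, 21 genes fixed beside them, the gene with the smallest p of each list and the 5 genes most like Dcx. Map7d2, Tppp, Tppp3, Jakmip1, Mapk10, Mapre1, Ttll5, Neurod1, Ide and Hba-a1 fall outside that rule and were named after their values were seen, as were the marker and label-check genes used to describe libraries. Genes, lists and tests were chosen with earlier results of these data known. Shared 50-base stretches and exon lengths came from GENCODE M21 (GRCm38), matched by symbol.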

Additional observations from a re-analysis of the deposited data

How the results depend on the processing

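None of the 10 genes passed the adjusted threshold under any of the 16 alternatives run, and Map1a, Map1b, Map2, Mapt, Tubb3, Dclk1 and Stmn1 kept a negative sign in all of them. The log2 ratio (SnoN cKO over wild type) of Map1b ranged from -0.23 to -0.15 (adjusted p from 0.122 to 0.939) and Map1a from -0.27 to -0.13. With 1 library left out, Dcx ranged from 0.004 to 0.107, the highest without wild type 3. With SnoN cKO 1 and 2 both left out, which leaves 1 SnoN cKO library assumed to vary like the wild type, Dcx turned to -0.025, Dclk2 to -0.0015 and Stmn2 to 0.040, 1 of 10 genes was positive and 7 of all genes were called. Over all genes the calls were 0 with edgeR's main test, 6 with DESeq2, 39 with no filter on low counts and 1 (Ide, named after its values were seen) with labelled sex as a term. With the replicate number as a block 0 genes were called. Deviations of same-numbered libraries correlated across genes at -0.04, -0.32 and -0.18. Among pairs of unlike number r ran from -0.17 to 0.39, the highest for wild type 2 with SnoN cKO 3, both high in Gm42418. These values gave no sign that the numbers pair the samples. They cannot exclude a pairing, since effects across a whole library also enter them. The block changed no call.

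Labelled female against male, in which 2 of 6 labels go against Xist and Y-linked counts, called 1 gene, again Ide, with Dcx at -0.03. DESeq2 called 2 (Hba-a1 and Ide), and no filter on low counts gave 158. With 1 library left out the calls ranged from 0 to 6 and Dcx from -0.067 to 0.022, at 0.0058 without wild type 1 and 0.022 without wild type 3. Per kilobase of the longest transcript in place of all exons, wild type levels were 94.5 CPM per kb for Dcx, 76.1 for Dclk1, 33.3 for Dclk2, 194 for Map1b, 181 for Map2, 142 for Mapt, 72.7 for Stmn1 and 249.7 for Stmn2. Genes with an r over 0.9 to Dcx numbered 446 after centring by genotype, against 232. The 10 genes held 963 (Stmn1) to 35000 (Map1b) counts per library, and 3 libraries per genotype limit the precision of all of them.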
